A study of Mus musculus with 8 samples.

Results

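The genes described are those of the cytosolic ribosomal proteins of the mouse lung, 85 of the 33,027 genes in the single-cell table. They were picked by symbol: Rps or Rpl followed by a number and, where present, one of the letters a, x, y or l with a further number, together with Rpsa, Rplp0, Rplp1 and Rplp2, and without symbols that hold -ps, which mark pseudogenes. Of the 85, 35 belong to the small subunit (Rps) and 50 to the large subunit (Rpl), and 81 are annotated as protein coding. The others, Rps12l1, Rpl6l and Rps3a2 (processed pseudogenes) and Rps4l (a transcribed processed pseudogene), pass the symbol rule but are not annotated as coding.

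Lung cells of 8 mice were profiled by droplet single-cell RNA sequencing. All mice were Sftpc-CreERT2-mTmG animals on C57BL/6, littermates in which tamoxifen, given at 8 to 10 weeks of age, turns on a green reporter in alveolar epithelial type II (AT2) cells, since the Cre is driven by the Sftpc promoter. In one arm, 4 mice breathed cigarette smoke (CS) for 6 hours a day on 5 days a week over 10 months, and in the other 4 mice breathed room air (RA). Right lungs were digested 1 day after the last exposure, and CD45-positive cells were sorted and mixed back at 10% with 90% CD45-negative cells, so that the shares of immune cells were set by the sort. The CS mice were C2, D2, C5 and D5 and the RA mice F1, F3, M1 and M3, each group labelled as 2 males and 2 females.

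A ribosome is built from a small subunit, which reads the message, and a large subunit, which joins amino acids, and each carries its own set of proteins around ribosomal RNA. Messages of these proteins are among the most abundant of a cell, and most start with a C and a run of pyrimidines, the terminal oligopyrimidine (TOP) tract, through which mTOR and Larp1 control their translation together. A few members have paralogs with a narrower pattern, such as Rpl3l in heart and skeletal muscle, Rpl10l and Rpl39l in testis, and Rps27l, a target of p53.

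The letters that carry the TOP tract were read around annotated transcription starts, and not every member had them. RefSeq starts on GRCm38.p6 were matched for 61 of the 85 genes. The following windows hold 30 bases before the start and 20 from it, on the strand of the gene, with capitals for each C that begins within 15 bases of the start and is followed by at least 4 bases that are C or T, together with that run. They show 2 of the members that varied most between cell types (Rpl12, chr2:32961682-32961731, plus strand, and the upstream start of Rps24, chr14:24490648-24490697, plus strand), 2 members followed below for the stalk and for smoke (Rplp2, chr7:141447621-141447670, plus strand, and Rpl7a, chr2:26910777-26910826, plus strand), and 2 paralogs that departed from the common pattern (the upstream start of Rps27l, chr9:66946056-66946105, plus strand, and Rpl7l1, chr17:46782637-46782686, minus strand).
Rpl12: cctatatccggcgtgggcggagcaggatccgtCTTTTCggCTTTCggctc
Rps24: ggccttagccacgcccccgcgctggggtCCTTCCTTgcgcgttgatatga
Rplp2: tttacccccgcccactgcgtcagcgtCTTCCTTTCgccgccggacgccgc
Rpl7a: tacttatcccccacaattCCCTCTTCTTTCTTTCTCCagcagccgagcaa
Rps27l: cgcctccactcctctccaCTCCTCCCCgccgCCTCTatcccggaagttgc
Rpl7l1: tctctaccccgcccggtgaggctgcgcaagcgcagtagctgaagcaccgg

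Such a run began within 15 bases of a start in 44 of the 61 matched genes (72.1%), against 44.9% of the 27,025 genes with an annotated promoter. It began exactly at the annotated start in 13 of the 61 (21.3%), against 3.01% of all genes. Only the strand of the gene was searched, and a match is a description of the letters and not of a start site in these cells. Among members, the coefficient of variation between cell types had a median of 62.2% in the 44 genes with a run and 59.6% in the 17 without.

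The table held 41,106 cells, of which 40,074 were used (20,330 CS and 19,744 RA). The 1,025 cells named multiplets and 7 named cell cycle by the authors were left out. Total transcripts per mouse ran from 31,094,695 to 52,753,531, and the median per cell from 4,254 to 6,473. Sex-linked transcripts went against the labelled sex in all 4 CS libraries, the 2 labelled male and the 2 labelled female, and in none of the RA libraries. Wrong sex labels and exchanged libraries cannot be told apart here. An exchange within the CS group would leave the group means as they are but not the values of single CS mice or their lanes, and an exchange between the groups was not tested. Between libraries, 197 cell barcodes were found in 2 libraries (394 cells), and values without those cells are given with the tests. Of 35 marker genes, 34 were highest in the cell type they were listed for. The exception was Ptprb, at 26.2 transcripts per 10,000 in general capillary (gCap) cells and 30.1 in arterial endothelial cells. The type labelled NG was the highest for the neutrophil genes S100a8 and S100a9. The type labelled Mast held Cpa3 at 9.22 and Ms4a2 at 4.63, but Mcpt4 was listed at 0, Cma1 at 0.118 and Kit at 0.390. Its name is used below only as the label of the authors.

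Levels are transcripts per 10,000 of a cell, averaged over the cells of a type in each mouse, so that n counts mice. A type was described where at least 3 mice of each group had at least 20 of its cells, which 22 of 32 types met. A level is a share of the RNA captured, so that a type with more RNA of other kinds has a lower level at an equal number of ribosomal protein messages, and these cannot be told apart here. Because reads count the ends of messages and can fall on processed copies, levels are compared across cell types for one gene, not between genes.

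Ribosomal protein level ran from lymphocytes to aerocytes. Summed over the 85 genes, T cells held 1,538 ± 112 transcripts per 10,000 (SD, n = 8), B cells 1,250 ± 130 and classical monocytes 1,161 ± 69.5. Natural killer and cytotoxic T cells followed at 949 ± 96.9 (n = 7), and Mast cells at 928 ± 64.1 (n = 7). The lowest levels were in aerocytes, the alveolar capillary cells of gas exchange, at 169 ± 21.7, NG cells at 198 ± 28.0, alveolar type I (AT1) cells at 215 ± 20.4 and ciliated cells at 247 ± 11.7 (n = 8 each). Between these ends lay adventitial fibroblasts at 785 ± 61.3, alveolar macrophages (AM) at 718 ± 70.8, AT2 cells at 693 ± 48.2, arterial endothelial cells at 508 ± 59.8, alveolar fibroblasts at 402 ± 62.2, club cells at 332 ± 19.1 and gCap cells at 284 ± 31.0. The single T cell values ran from 1,370 in D2 to 1,676 in C2, and those of aerocytes from 144 in D5 to 206 in F1. The ends of the order were thus far apart in every mouse, while each type overlapped with the next in order in the range of its mice. Over all cells together the 85 genes made up 5.06% of transcripts.

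**Figure D1:**
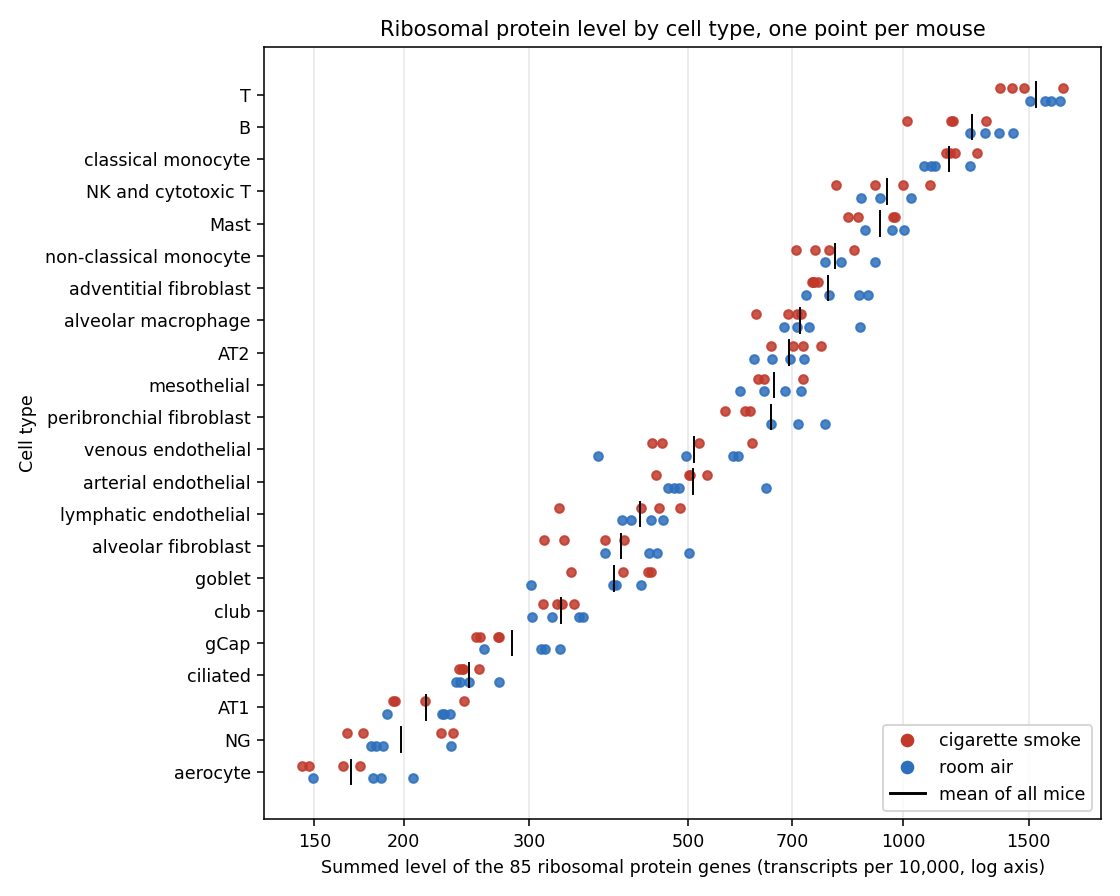
Summed level of the 85 ribosomal protein genes in transcripts per 10,000 (horizontal, log axis) for each of 22 cell types (vertical), with a point for each mouse, coloured by exposure, and a black line at the mean of all mice. T cells lie between 1,370 and 1,676 and aerocytes between 144 and 206, and CS and RA points overlap in every type but peribronchial fibroblasts.

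The subunits moved together. The summed small-subunit and large-subunit levels had a rank correlation of 0.995 over the 22 types, and the small subunit made up between 40.8% of the sum in ciliated cells and 49.97% in non-classical monocytes. The order was nearly the same when each cell was thinned to 2,000 transcripts (rank correlation 0.994). It had a rank correlation of -0.27 with the median transcripts per cell and of -0.16 with the mitochondrial percent. These are descriptions over 22 types that share the same 8 libraries. The 10 types with too few cells ran from 265 in pericytes to 1,341 in cDC2 as a mean over cells, with cDC1 at 1,318, basal cells at 1,209 and mature dendritic cells at 1,068.

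The summed level of other ribosome parts and TOP messages followed the same order, and that of single genes did so to differing degrees. A list of 18 such TOP companions had a summed level with a rank correlation of 0.972 with that of the members. Among them are elongation factors and the ribosome-associated Rack1. Fau and Rpl36al are in the list as parts of the cytosolic ribosome whose symbols the rule does not pick. The sum is weighted to Tpt1 and Fau, with means over types of 31.2 and 18.9. Single companions ran from 0.60 for Rpl36al, 0.70 for Eef1d, 0.72 for Eef1g and 0.79 for Pabpc1 to 0.97 for Tpt1. Of 2,071 genes outside the members with a mean of at least 1, the most alike were Tpt1 (rho 0.972, over 22 types), Zfp862-ps (0.968), Gm4149 (0.968), Eef1b2 (0.967) and Eef1a1 (0.960). The summed level of 238 ribosomal protein pseudogenes had a rank correlation of 0.993, and reads of a message and its processed copies cannot be told apart where their sequences are alike. For ribosome biogenesis genes the value was 0.58, for regulators such as Mtor and Larp1 0.38, for the digestion response, a list of stress genes such as Fos and Jun, -0.081, and for mitochondrial ribosomal proteins, which serve a separate ribosome, -0.14. The name digestion response marks the list only, and whether digestion moves its genes was not tested.

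Most members shared one pattern across cell types and a few did not. Of the 75 members with a mean over types of at least 1 transcript per 10,000, 56 were highest in T cells, 9 in classical monocytes, 3 each in Mast cells, AM and B cells, and 1 in adventitial fibroblasts. The lowest type was NG for 43, aerocytes for 27 and ciliated cells for 5. The highest type exceeded the lowest by a median of 10.98-fold, the median coefficient of variation of the type means was 59.9%, and 62 of 75 had a rank correlation above 0.9 with the sum of the other members. The plot of each gene by type shows this as bands that run across almost all genes, in an order of types set by the same values.

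**Figure D2:**
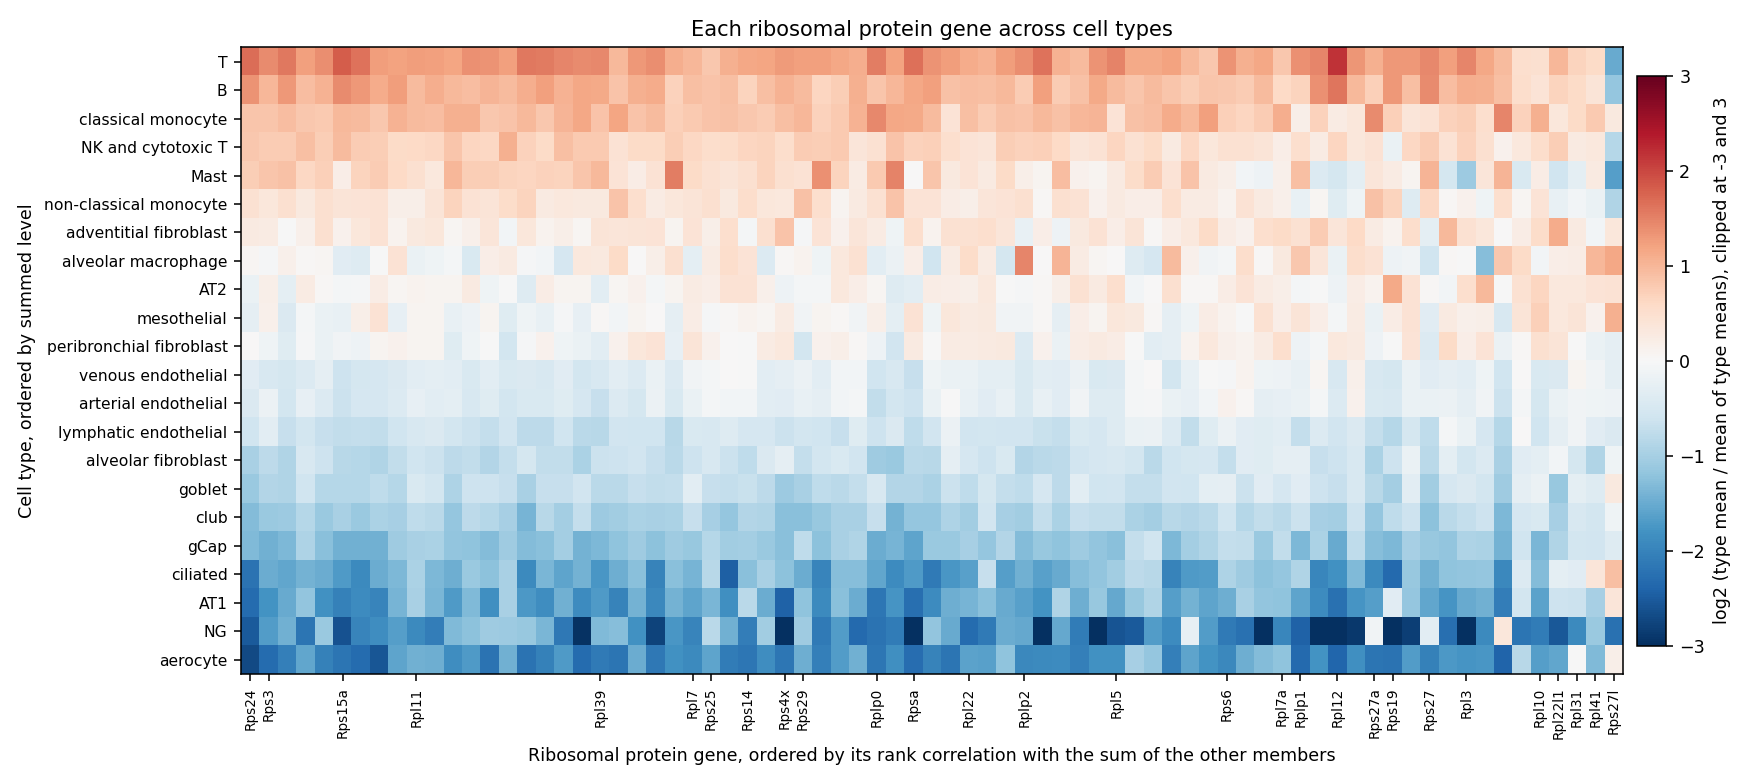
Log2 of the mean of each cell type over the mean of all types for the 75 members with a mean of at least 1 (horizontal, ordered by rank correlation with the sum of the other members) in 22 cell types (vertical, ordered by summed level), with some of the genes labelled. Columns share the same bands from T cells (red) to aerocytes (blue) except at the right end, where Rps27l has a correlation of -0.23.

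Members with the widest spread belonged to both subunits. Rpl12, a large-subunit protein at the base of the stalk, had a coefficient of variation of 99.2%, with 32.6 ± 3.08 in T cells, 22.2 ± 3.24 in B cells, 11.5 ± 0.807 in natural killer and cytotoxic T cells and 0.589 ± 0.156 in NG cells. Rps24, a small-subunit protein mutated in Diamond-Blackfan anaemia, ran from 63.9 ± 4.40 in T cells to 3.05 ± 0.520 in aerocytes. Rps15a fell from 29.6 ± 2.93 in T cells to 1.39 ± 0.279 in NG cells, and Rpsa, also known as a laminin receptor, from 34.3 ± 2.98 to 1.06 ± 0.180 in the same types. Among the 75, the narrowest spread was that of Rpl31 (32.3%), with 1.92 ± 0.243 in T cells and 0.318 ± 0.133 in NG cells, and Rpl41, Rps25 and Rpl7a were also among the narrow ones. Rpl41, which encodes a very short peptide, was highest in AM at 23.9 ± 4.83, with 20.5 ± 3.97 in classical monocytes and 17.9 ± 3.16 in T cells.

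Members of known separate roles varied in how closely they followed the sum of the others. Rpl5 and Rpl11, which bind Mdm2 when ribosome assembly fails, were highest in T cells at 9.90 ± 0.976 and 19.2 ± 1.51, and lowest in NG cells at 0.593 ± 0.125 and 2.16 ± 0.486. Rps6, the target of S6 kinases, ran from 8.87 ± 1.66 in T cells to 0.811 ± 0.283 in NG cells. Rps19, the gene most often mutated in Diamond-Blackfan anaemia, was at 17.2 ± 1.64 in B cells and 17.1 ± 2.21 in T cells. AT2 cells came next, at 15.2 ± 1.83, and NG cells reached 0.677 ± 0.179. Rps27a, made as a fusion with ubiquitin, and Rpl10, which joins the large subunit late in its maturation, were highest in classical monocytes, at 32.2 ± 1.99 and 23.0 ± 1.69. For Rpl10 mesothelial cells (17.9 ± 1.60) and AT2 cells (17.0 ± 1.71) came next. Over the 22 types, the rank correlation with the sum of the other members was 0.95 for Rpl5, 0.98 for Rpl11 and 0.94 for Rps6, and it was lower for Rps27a (0.90), Rps19 (0.89) and Rpl10 (0.82).

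Some paralogs departed from the rest. Over the 22 types, the rank correlation with the sum of the other members was -0.49 for Rps4l, -0.23 for Rps27l and 0.53 for Rpl7l1, while that of Rpl22l1 (0.80) was near those of Rpl41 and Rpl31 (0.80 each). Rps27l was highest in AM at 3.47 ± 0.509, mesothelial cells at 3.24 ± 0.167 and ciliated cells at 2.91 ± 0.214, whereas T cells, the highest type for its partner Rps27 (18.4 ± 3.98), held 0.539 ± 0.119. Rps4l was highest in lymphatic endothelial cells at 1.02 ± 0.354, gCap cells at 0.868 ± 0.151 and arterial endothelial cells at 0.840 ± 0.126, and reached 0.0218 ± 0.0174 in T cells, while Rps4x, the coding gene on the X chromosome, was highest in T cells at 32.1 ± 2.79. Rpl22l1 was highest in adventitial fibroblasts at 4.90 ± 0.541 and T cells at 4.52 ± 0.487, whose ranges overlap, while Rpl22 was highest in T cells at 13.2 ± 1.02. Rpl3l was near 0 except in non-classical monocytes (0.245 ± 0.117), AM (0.241 ± 0.149) and NG cells (0.130 ± 0.0738). Rpl39l reached 0.0673 ± 0.116 in AM and Rpl10l at most 0.00379. Rpl13a, a large-subunit protein, stood at only 0.956 ± 0.206 in T cells, and Rps10 reached at most 0.00191 in any type. These low values are uncertain, and whether reads shared with processed copies lower them was not tested.

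AT2 cells exceeded AT1 cells in nearly all members. Cell types of the same mice were compared with limma on log2 of the level plus 1, with the mouse as a block, for genes detected in 10% or more of the cells in one type or the other. Calls are at a Benjamini-Hochberg adjusted p under 0.05 over all those genes. The types had been defined by the authors by clustering the same cells on their transcripts, so the comparisons describe how members differ between them. Of 80 members tested, 77 were higher in AT2 than in AT1 cells, where 26.8% of all genes were, and 1 was lower, where 52.3% of all genes were. The median difference on the log2 scale was 1.32 for members and -0.08 for all genes. Rpl21, a large-subunit protein, lay between 16.6 and 22.1 (median 19.3) in AT2 cells and between 2.95 and 4.11 (median 3.64) in AT1 cells of the 8 mice. The ranges were far apart (fc = 5.39, log2 difference 2.15 ± 0.06 (SE), limma adjusted p = 3.12e-14). Next by log2 difference came Rps12 (fc = 4.84), Rpl10 (4.72), Rps3a1 (4.65) and Rps4x (4.81), higher in 8 of 8 mice each. The member called lower was Rps4l, between 0.0741 and 0.173 in AT2 cells and between 0.336 and 0.546 in AT1 cells (fc = 0.270). Rps27l held 2.07 ± 0.253 in AT2 and 1.98 ± 0.395 in AT1 cells (limma adjusted p = 0.397), and Rpl7l1 0.386 ± 0.0566 and 0.374 ± 0.0595 (limma adjusted p = 0.751). Of the TOP companions 15 of 18 were higher in AT2 cells and 0 lower, whereas of 73 mitochondrial ribosomal proteins 7 were higher and 41 lower. Of the digestion response 10 of 11 were higher in AT2 cells and 0 lower (median log2 difference 0.96), and its part in the member differences was not tested.

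gCap cells exceeded aerocytes. Of 78 members tested, 75 were higher in gCap cells (34% of all genes were) and 2 lower (36.4% of all genes were), with a median log2 difference of 0.51 for members and -0.01 for all genes. Rps24 lay between 6.91 and 10.0 (median 7.99) in gCap cells and between 2.51 and 4.02 (median 2.86) in aerocytes, without overlap (fc = 2.64, log2 difference 1.16 ± 0.08 (SE), limma adjusted p = 1.4e-08). Rps14 (fc = 2.21), Rps3a1 (2.19), Rps21 (2.12) and Rps12 (2.07) came next by log2 difference, all of the small subunit, and Rps6, at 2.14 ± 0.481 against 0.915 ± 0.187, differed by a fold of 2.33. The lower members were Rps27l, at 1.19 ± 0.0599 in gCap cells and 1.75 ± 0.388 in aerocytes and lower in 8 of 8 mice (fc = 0.679), and Rpl31, at 0.819 ± 0.0884 and 1.19 ± 0.293 and lower in 7 of 8 mice (fc = 0.691, limma adjusted p = 0.000315). Of the TOP companions 14 of 17 were higher in gCap cells and 0 lower, and of the digestion response 9 of 11 and 0 (median log2 difference 0.52).

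B cells fell below T cells, most of all in the stalk. The stalk of the large subunit recruits elongation factors. Rplp0 is its anchor, and Rplp1 and Rplp2 attach to it. Of 78 members tested, 54 were lower in B than in T cells (26.9% of all genes were) and 2 higher (31.6% of all genes were), with a median log2 difference of -0.25. Rplp1 lay between 27.0 and 49.3 (median 34.6) in B cells and between 51.5 and 66.0 (median 60.2) in T cells (fc = 0.611, log2 difference -0.71 ± 0.07 (SE), limma adjusted p = 1.1e-06). The groups of values did not overlap. Rplp0 was at 21.3 ± 4.29 against 34.7 ± 4.38 (fc = 0.612), and Rplp2 at 15.1 ± 0.851 against 23.1 ± 2.20 (fc = 0.655), followed by Rps23 (0.666) and Rpl12 (0.681), and each was lower in 8 of 8 mice. The members called higher were Rpl7l1 (0.663 ± 0.132 against 0.454 ± 0.165, 7 of 8 mice) and Rps27l (0.692 ± 0.183 against 0.539 ± 0.119, 6 of 8 mice, limma adjusted p = 0.0456). The call of Rps27l was lost when C2, C5, D2, D5, F1 or F3 was left out, with a limma adjusted p between 0.0613 and 0.135 then. Of the digestion response 6 of 11 genes were lower in B cells and 1 higher.

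The stalk proteins did not move together between AM and classical monocytes. Compared with classical monocytes, 66 of 81 members were lower in AM (26.7% of all genes were) and 7 higher (32.1% of all genes were), with a median log2 difference of -0.67 for members and 0.03 for all genes. Rplp0 lay between 6.37 and 13.1 (median 9.86) in AM and between 30.1 and 35.1 (median 32.6) in monocytes (fc = 0.298, log2 difference -1.68 ± 0.10 (SE), limma adjusted p = 7.68e-12). Its partners went the other way. Rplp1 lay between 34.2 and 47.9 (median 38.9) in AM and between 22.4 and 31.2 (median 25.7) in monocytes (fc = 1.55, limma adjusted p = 5.43e-07). Rplp2 lay between 18.9 and 29.3 (median 23.9) in AM and between 14.1 and 19.7 (median 16.1) in monocytes (fc = 1.51, limma adjusted p = 1.4e-05). Each of the 3 changed in its direction in 8 of 8 mice, and for Rplp0 and Rplp1 the ranges did not overlap. Rplp0 has a longer coding sequence (951 bases) than Rplp1 (342) and Rplp2 (345). Of the summed member transcripts, the 24 members with the shortest coding sequences held 37.1% in AM and 27.7% in monocytes, and the 25 with the longest held 31.5% and 36.96%. The part of length in the split of the stalk was not tested. Members that were lower alongside Rplp0 were Rpl21 (fc = 0.290), Rpl19 (0.348) and Rpl18 (0.349), all of the large subunit. The other members called higher were the paralogs Rps27l (1.85), Rps4l (5.92), Rpl3l (6.51) and Rpl7l1 (1.59), and Rpl41 (1.17, limma adjusted p = 0.0379). The low levels of Rps4l (0.529 ± 0.141 in AM and 0.0893 ± 0.0695 in monocytes) and Rpl3l (0.241 ± 0.149 and 0.0369 ± 0.0514) make their folds uncertain. Detection in 10% of the cells of AM alone was enough for a gene to be tested. The calls of Rps4l and Rpl3l, counted among the 7 higher, are thus not independent of the filter. The call of Rpl41 was lost when C2, C5, D2, F1, M1 or M3 was left out, with a limma adjusted p between 0.0548 and 0.1004 then. In the same comparison 34 of 65 mitochondrial ribosomal proteins and 13 of 24 ribosome biogenesis genes were higher in AM, with 6 and 1 lower, while 12 of 17 TOP companions were lower and 2 higher. Of the digestion response 5 of 11 were higher and 2 lower.

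**Figure D3:**
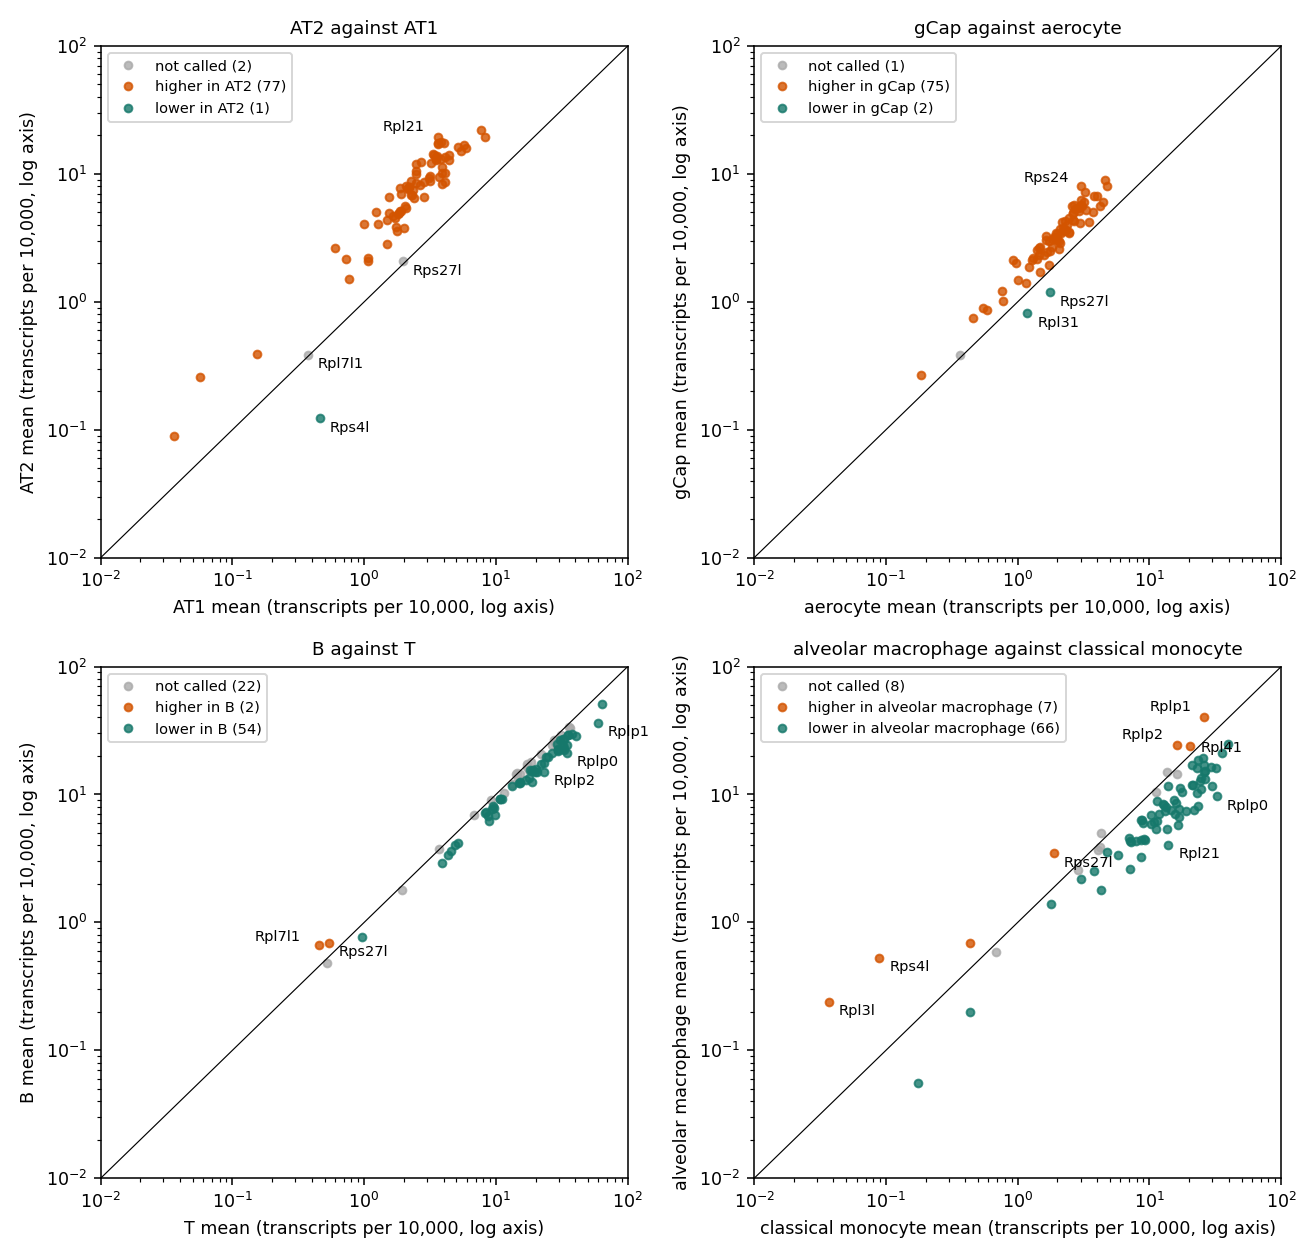
Mean level of each tested member in the first type (vertical) against the second (horizontal), both in transcripts per 10,000 on log axes, for AT2 against AT1, gCap against aerocytes, B against T and AM against classical monocytes, with the diagonal of equal levels and colours for calls at a limma adjusted p under 0.05. In the panel of AM, Rplp1 and Rplp2 lie above the diagonal and Rplp0 far below it.

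Smoke and room air differed in few members. Whether chronic smoke changed the members was asked within each cell type, with limma on the same log2 values and no covariate. Of 1,731 tests of a member in a type, 5 passed an adjusted p of 0.05, all lower in CS, against 0.518% of all 172,262 tests of a gene in a type. None was higher (0.712% of all tests were), and at an unadjusted p under 0.05 there were 128 lower and 17 higher in limma. Together these are 8.38% of the member tests, below the 15.2% of all gene tests. By direction, 7.39% of member tests and 6.30% of all gene tests were lower at that p, and 0.982% and 8.92% were higher. In all, 62.4% of the member differences and 45.8% of those of all genes were below 0. The same 8 libraries stand behind every type, so the types are not independent of each other.

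In gCap cells 3 of 78 members were called lower, where 3.97% of all genes were. Rpl10 was at 3.42, 3.76, 3.62 and 3.01 transcripts per 10,000 in CS mice C2, D2, C5 and D5, and at 4.58, 5.11, 5.03 and 5.42 in RA mice F1, F3, M1 and M3. Every CS mouse was below every RA mouse (fc = 0.686, log2 difference -0.44 ± 0.09 (SE), limma adjusted p = 0.0274). Rplp0, the anchor of the stalk, was at 3.52, 3.89, 3.79 and 3.15 in the CS mice and at 4.54, 5.35, 5.31 and 4.54 in the RA mice, in the same order of mice, and did not overlap (fc = 0.726, -0.37 ± 0.09, limma adjusted p = 0.0353). Rpl7a was at 2.35, 2.58, 2.71 and 2.04 against 3.25, 3.11, 3.42 and 3.42, again without overlap (fc = 0.733, -0.33 ± 0.08, limma adjusted p = 0.0336). Rps3 (limma adjusted p = 0.0506), Rpl8 (0.0518) and Rpl14 (0.0524) missed the threshold. Of the 78 members, 13 had every CS mouse below every RA mouse, where 11% of all genes did. Beside these members, genes of the lists were called lower in CS gCap cells. They were Npm1 and Tpt1 of 17 TOP companions tested, Fbl of 9 biogenesis genes and Eif4ebp1 of 7 regulators. Eif4ebp1 is an inhibitor of translation that mTOR acts on. Also lower were 4 of 51 mitochondrial ribosomal proteins, Mrpl9, Mrps25, Mrpl42 and Mrpl12.

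In AT1 cells 1 of 78 members was called, Rpl13a, where 0.992% of all genes were lower. It was at 0.0576, 0.0934, 0.108 and 0.0750 in C2, D2, C5 and D5 and at 0.204, 0.180, 0.249 and 0.263 in F1, F3, M1 and M3, without overlap (fc = 0.373, log2 difference -0.18 ± 0.04 (SE), limma adjusted p = 0.0165). The log2 scale with 1 added shrinks the difference of a gene at so low a level, and the low level also makes its fold uncertain. Detection in 10% of the cells of one group was enough for a gene to be tested, so the call of Rpl13a is not independent of the filter. With no filter on genes no member was called in any type. After thinning, Rpl13a was not among the 76 members tested in AT1 cells, and none of those was called. In ciliated cells 1 of 79 members was called, Rpl7l1, where 1.91% of all genes were lower. It was at 0.270, 0.314, 0.301 and 0.300 in the CS mice and at 0.440, 0.391, 0.352 and 0.391 in the RA mice (fc = 0.753, -0.10 ± 0.03, limma adjusted p = 0.0458). Its groups did not overlap, and Rpl22l1 in the same cells (limma adjusted p = 0.0513) missed the threshold.

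The sequencing lanes each held 1 CS and 1 RA mouse. With lane as a block, Rpl13a in AT1 cells stayed called (limma adjusted p = 0.0291), and Rpl10, Rplp0 and Rpl7a in gCap cells (0.0711, 0.0726 and 0.0758) and Rpl7l1 in ciliated cells (0.110) did not. In gCap cells 0 genes of any kind were called with lane as a block, against 672 without it. The calls of list genes in gCap cells were thus lost as well. The median member difference in gCap cells was -0.15 with and without the block, as each lane held 1 mouse of each group. The block leaves fewer degrees of freedom, so a lost call does not show that the difference came from the lane. Leaving out a mouse ended the member calls in gCap cells for C2, D2, D5 and F3 (and for Rplp0 and Rpl7a also M1, for Rpl7a also M3), that of Rpl13a for C2 and D5, and that of Rpl7l1 for every mouse but M1. The digestion response was also lower in CS gCap cells, at a summed 46.9 to 78.2 in CS and 97.8 to 127 in RA mice, with Atf3, Jun, Junb and Dusp1 of 11 genes called. In AT1 cells it was at 10.97 to 19.2 and 16.8 to 31.3, with Dusp1 called lower (limma adjusted p = 0.0319). In ciliated cells it was at 48.5 to 118 and 84.2 to 127, with Ier2 and Fos called lower (limma adjusted p = 0.0159 and 0.0399). Its part in the member differences was not tested.

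Alveolar and peribronchial fibroblasts had the lowest ratios of the summed level, CS over RA, of the 22 types, without a called member. The ratio was below 1 in 16 types and above 1 in 6, and over the alternatives run it stayed below 1 in 9, stayed above 1 in 3 and fell on both sides in 10. In alveolar fibroblasts the summed level was 314, 383, 335 and 407 in C2, D2, C5 and D5 and 502, 441, 453 and 383 in F1, F3, M1 and M3, which overlap (CS over RA 0.809). Of 78 members 75 lay below 0 (49.2% of all genes did), with a median log2 difference of -0.25 against 0.00 for all genes. At an unadjusted p under 0.05 in limma there were 34 of the 78 members, all lower. Of all 8,329 genes tested there, 22.3% were at that p in either direction, and 921 genes were lower. In 15 of the 78 members every CS mouse was below every RA mouse, where 7.64% of all genes were so. Rpl7a (3.34 ± 0.328 against 4.65 ± 0.574), Rpl10 (7.52 ± 0.998 against 10.4 ± 0.768) and Rpl3 (4.05 ± 0.314 against 5.59 ± 0.657) had the smallest p, with limma adjusted p = 0.0857, 0.0862 and 0.0863. In peribronchial fibroblasts, with 3 mice a group, the sum was 600, 610 and 563 in D2, C5 and D5 and 714, 777 and 654 in F1, F3 and M1, the only type whose groups did not overlap (CS over RA 0.827). There 26 of 79 members had every CS mouse below every RA mouse, where 6.87% of all genes did, and Rpsa, at 10.4 ± 1.11 against 16.0 ± 1.24, had the smallest p (limma adjusted p = 0.479). The digestion response was at 117 to 190 in CS and 122 to 189 in RA alveolar fibroblasts, and the median transcripts per cell at 6,206 to 8,682 and 5,893 to 8,930. In peribronchial fibroblasts the digestion response was at 177 to 199 in CS and 180 to 285 in RA mice, and its part in the difference of the sums was not tested.

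Of the 19 types without a call, the smallest adjusted p was in adventitial fibroblasts. There Rplp0 was at 12.3, 12.51, 11.6 and 10.6 in C2, D2, C5 and D5 and at 20.5, 16.0, 14.1 and 17.0 in F1, F3, M1 and M3, apart but not called (fc = 0.695, limma adjusted p = 0.0684). The digestion response there was at 120 to 146 in CS and 125 to 162 in RA mice, with Atf3 called lower. In AM, Rpl29 was at 1.88, 1.42, 2.46 and 2.0 in C2, D2, C5 and D5 and at 3.01, 3.61, 3.26 and 3.44 in F1, F3, M1 and M3, apart but not called (fc = 0.583, limma adjusted p = 0.0912), and 7 of 80 members had every CS mouse below every RA mouse, where 2.55% of all genes did. The digestion response in AM was at 48.7 to 65.8 in CS and 62.6 to 88.9 in RA mice, with Egr1 called lower. In aerocytes, Rps27l was at 2.25, 1.77, 2.36 and 1.78 in the CS mice and at 1.63, 1.51, 1.23 and 1.47 in the RA mice (fc = 1.40, limma adjusted p = 0.0790), higher where most members were lower. Rps27l was at 2.26 ± 0.316 in CS and 1.71 ± 0.240 in RA AT1 cells (fc = 1.33, limma adjusted p = 0.138) and at 0.438 ± 0.0513 and 0.641 ± 0.0555 in T cells (fc = 0.684, limma adjusted p = 0.147). The digestion response was at 30.8 to 33.1 in CS and 37.6 to 46.5 in RA T cells, without overlap, and at 40.1 to 51.3 and 37.1 to 84.3 in aerocytes. Its part in these differences was not tested. In AT2 cells the summed level was 712 ± 47.5 in CS and 674 ± 47.1 in RA mice, and the smallest p was that of Rps26, at 7.26 ± 0.630 against 5.74 ± 0.589 (fc = 1.27, limma adjusted p = 0.617). In the other 12 types without a call the smallest adjusted p of a member lay between 0.227 in arterial endothelial cells and 0.721 in non-classical monocytes in limma.

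**Figure D4:**
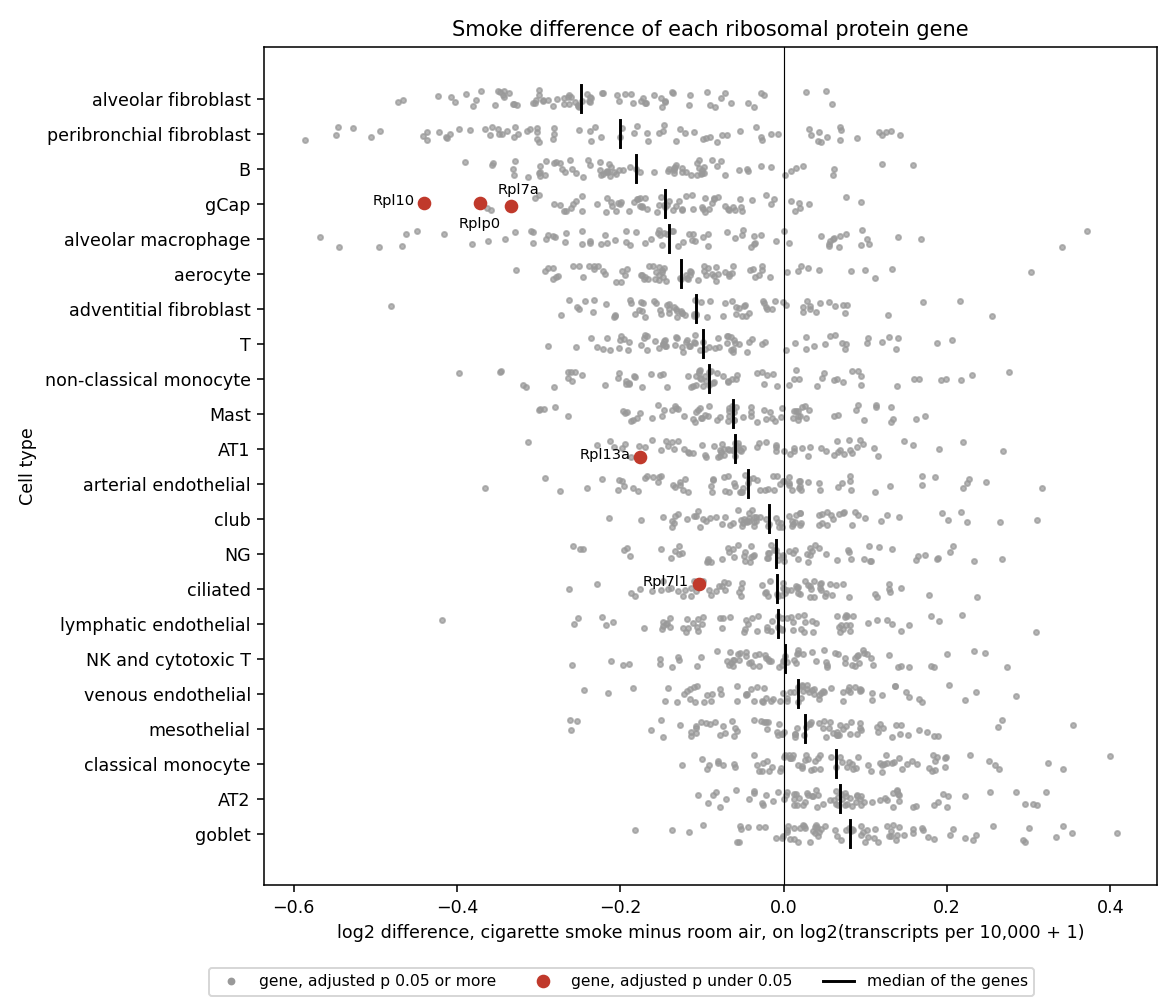
Log2 difference of each tested member, cigarette smoke minus room air, on log2 of transcripts per 10,000 plus 1 (horizontal) in 22 cell types (vertical, ordered by the median of the members), with a grey point for each gene, red for a limma adjusted p under 0.05 and a black line at the median. The medians run from -0.25 in alveolar fibroblasts to 0.08 in goblet cells (-0.01 to 0.14 there over the alternatives), and the 5 called genes lie left of 0.

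The smoke difference of members was not found to depend on the type where this was tested. Between gCap cells and aerocytes 0 of 78 members had a different smoke effect in limma (0.0835% of all genes did), with 2 at an unadjusted p under 0.05 (2.56%, against 10.6% of all genes). Between AT2 and AT1 cells the counts were 0 of 78 (1.03% of all genes) and 10 (12.8%, against 13.97% of all genes). Between gCap cells and AM they were 0 of 78 (0.663% of all genes) and 4 (5.13%, against 13.6% of all genes). A difference that misses the threshold is not shown to be absent.

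Outside the members, the lists fixed beside them were counted over the 22 types in the fit without lane. There 0.518% of all tests were lower and 0.712% higher. Of the digestion response 9 of 239 tests were lower in CS (3.77%) and 0 higher. Of the TOP companions 2 of 375 were lower (0.533%) and 1 higher (Hnrnpa1 in ciliated cells). Of the mitochondrial ribosomal proteins 7 of 1,290 were lower (0.543%), of the biogenesis genes 2 of 419 (0.477%), of the regulators 2 of 162 (1.23%, Eif4ebp1 in gCap cells and aerocytes), and of the pseudogenes 0 of 984, with 0 higher in each of these 4 lists.

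Long and short members differed in their direction under smoke. A pattern was seen only after the values were known. Rplp0, Rps6, Rps3, Rpl10, Rpl7 and Rps29 were lower in CS than in RA in 22 of 22 types, with a median log2 difference of -0.26 for Rplp0 and -0.20 for Rps6. Rps29 (-0.12) goes against the pattern, as its coding length of 168 bases is among the shortest. Rpl37a was higher in 22 of 22 types (median 0.20), Rpl39, which lines the exit tunnel, in 21 (0.18), Rpl41 in 21 (0.15) and Rps27 in 19 (0.14). Over the 73 members tested in every type, the median difference had a rank correlation of -0.73 with the longest annotated coding length, and between -0.78 and -0.30 within single types. The 24 shortest members, of 138 to 399 bases, had a median of 0.04 with 17 above 0, the middle 24 a median of -0.05 with 4 above 0, and the 25 longest, of 576 to 1,257 bases, a median of -0.12 with 1 above 0. Among 624 other coding genes with a mean of at least 0.5 in every type the correlation was 0.52. Their lengths were not matched to those of the members. Of the 624, 65 had at most 399 bases (median -0.05) and 505 had 576 or more, without an upper limit (median 0.02). The points share the same 8 libraries, and what lies behind the pattern was not tested.

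The ratio of transcripts of the 24 shortest to those of the 25 longest members was compared mouse by mouse. In gCap cells it was 1.05, 0.908, 0.879 and 1.18 in C2, D2, C5 and D5 and 0.799, 0.848, 0.90 and 0.912 in F1, F3, M1 and M3, which overlap. CS mouse D5 was the highest in 22 of 22 types and C2 second in 16 of the 20 types where it had enough cells, while F1 was the lowest in 14 of 19. The CS mean exceeded the RA mean in 22 of 22 types, but the groups were apart in 1, peribronchial fibroblasts. Without C2 and D5 the CS mean was the higher in 12 of 22. Within lanes, the CS mouse had the higher ratio in 17 of 17 types in lane 1 (C2 and F1), 22 of 22 in lane 2 (D2 and F3) and 21 of 21 in lane 4 (D5 and M3), but in 2 of 22 in lane 3 (C5 and M1).

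**Figure D5:**
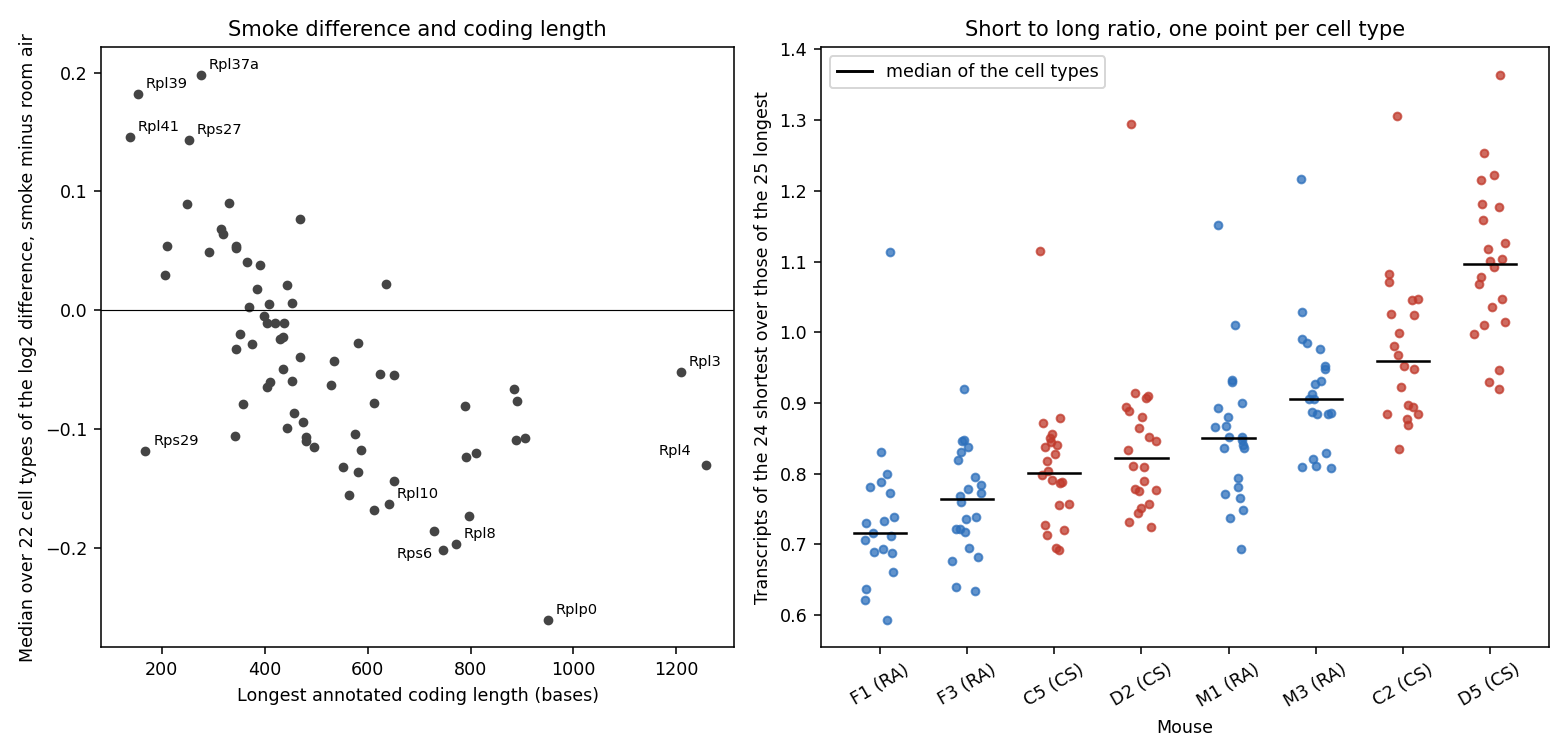
Left, the median over 22 cell types of the log2 difference, smoke minus room air (vertical), against the longest annotated coding length in bases (horizontal) for 73 members. Right, the ratio of transcripts of the 24 shortest members to those of the 25 longest (vertical) for each mouse (horizontal), with a point for each cell type and a line at their median; D5 is the highest in 22 of 22 types.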

How the data were processed

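Cells of 8 mouse lungs were profiled with 10x 3′ chemistry. Per the methods and labels, the authors aligned reads with STARsolo (STAR 2.7.3a) to GRCm38.p6 and summed spliced and unspliced molecules. They kept cells with at least 1,000 transcripts and at most 5% mitochondrial, and removed those with a low share of unspliced transcripts. They also corrected for free RNA with SoupX and named the types by clustering. The deposited values are thus expected counts: 1.28% were whole (within 1e-06), and they were not scaled. The mitochondrial percent was deposited by the authors. All deposited cells were kept but multiplets and cell cycle, no doublet caller was run, and the numbers of cells used per group differ from those the study states, with CS the larger group here and RA the larger there. The authors' table gives the types, and each cell's mouse was read from it. Exposure came from the labels and lane from the descriptions.

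Each cell was scaled to 10,000 and averaged per mouse and type. The trend form of limma 3.58.1 in R 4.3.3 was fitted to these means, as log2 after adding 1, for genes detected in 10% or more of the cells in one group or the other, for mice with at least 20 cells and at least 3 mice a group, with Benjamini-Hochberg adjustment at 0.05. As the values are not raw counts, no count model was used. The fits were tested on simulated data. Each library is 1 mouse. The p-values for smoke measure the spread between mice within the groups, at 3 or 4 mice a group. Those between cell types measure the spread of the differences within mice. Members and lists were chosen with earlier results of these data known. Named genes were up to 5 higher and 5 lower called members with the largest difference without overlap, the 3 smallest p where none was called, the 5 most and least variable across types, members fixed by role, and the 5 genes most alike. Lanes pair the mice, per the labels. Deviations from group means of same-lane mice correlated above 0.1 in 3 of 12 cases (4 lanes in gCap, AT1 and ciliated cells), all in lane 4, that of D5 and M3 (0.41, 0.26 and 0.38). For the same 3 types the values were 0.04, -0.10 and -0.21 in lane 1 and -0.04, 0.04 and 0.08 in lane 2. In lane 3, that of C5 and M1, they were -0.28, -0.11 and -0.11, so same-lane mice did not share a direction in every lane. Positions and coding lengths are from GENCODE M21 and promoters from RefSeq, both on GRCm38. Summaries were made in Python 3.11.15 (pandas 2.3.3, numpy 2.4.6) and plots with matplotlib 3.10.9. Alternatives were the pseudocount, filters, scaling, averaging, thinning, lane, labelled sex and leaving out each mouse, with cells of shared barcodes left out as an alternative added after the data were seen. A few members that this rule names are not reported here.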

Additional observations from a re-analysis of the deposited data

Results flagged for a closer look

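Of 82 groups of 4 mice examined, 4 had 1 mouse whose gap to the nearest of the others, divided by the range of the group, passed Dixon's critical value of 0.829. Chance sets apart about 1 in 20 groups. The summed level of RA mouse M3 in arterial endothelial cells was 643 transcripts per 10,000, with 469, 478 and 485 in the others. RA mouse M3 also stood apart in NG cells at 233, with 180, 183 and 187 in the others. RA mouse F3 was at 190 in AT1 cells, with 226, 228 and 233 in the others. In ciliated cells, Rpl22l1 was at 1.74 in RA mouse F3 and at 2.15, 2.17 and 2.24 in the others, and the 4 CS mice lay below all of these, from 1.59 to 1.64.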

How the results depend on the processing

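The count of members lower in smoke, 5, was 9 with genes in at least 25% of cells, 0 with no filter on genes, 11 with summed transcripts, 8 after median-centring, 1 with sequencing lane as a block, 3 after thinning to 2,000 transcripts and 0 to 14 with 1 mouse left out (0 without C2 or D5, 1 without D2, 2 without F3, 3 without M3 and 14 without F1), and 7 without cells of shared barcodes, an alternative chosen after seeing the data. With a pseudocount of 0.1 or scaling to other transcripts it was 6. No member was higher in smoke under any of these. Members higher in B than in T cells, 2, were 1 with no filter, scaled to other transcripts, summed, median-centred, and 1 to 2 with 1 mouse left out. No single gene named reversed under these alternatives. The median smoke difference of the members changed sign in 10 of 22 types (AT1, ciliated, club, goblet, mesothelial, NG, natural killer and cytotoxic T, and arterial, venous and lymphatic endothelial cells). Over all single genes named, for smoke and between types, 814 results kept their side of the threshold, 7 gained a call and 55 lost one. Rpl10 in gCap cells was called under 13 of 19 alternatives (limma adjusted p from 0.0120 to 0.117), Rpl13a in AT1 cells under 14 of 17 (0.0154 to 0.136), Rpl7a and Rplp0 in gCap cells under 11 of 19 each (0.0245 to 0.131 and 0.0260 to 0.138) and Rpl7l1 in ciliated cells under 8 of 18 (0.0377 to 0.132). Of 463 single-gene results between types, 443 kept their call and 20 lost it, those of Rps27l in B against T and Rpl41 in AM against monocytes. Depth limits members near 0, such as Rpl10l, Rpl39l and Rps10. Beyond the lane, the labels pair no mice between the groups.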
